A study of Mus musculus with 21 samples.

Results

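Hearts of mice given isoproterenol, which activates β-adrenergic receptors, were compared with hearts of mice given propranolol, which blocks them. The comparison uses 6 of the 21 libraries of the study, 3 per drug, and the 11961 of 18762 listed genes that reached 1 FPKM (fragments scaled to transcript length and library size) in at least 3 of these 6 libraries. The study sequenced RNA from the heart apex of ICR mice at postnatal day 7, after apical resection, the surgical removal of the tip of the ventricle, at day 1. Drugs were injected subcutaneously over 7 consecutive days, and the other groups of 3 libraries were a control labelled with the resection and no drug, amiodarone, metoprolol, lidocaine and ivabradine. All 6 libraries therefore come from resected, injected hearts of 1 age and strain. Neither dose nor sex is labelled, and nothing says if the 3 libraries of each drug came from different hearts, so p-values measure the spread between libraries, which may be technical.

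β-adrenergic receptors carry the signals of noradrenaline and adrenaline to the heart. They act through the stimulatory G protein Gs, adenylyl cyclase, cyclic AMP and protein kinase A, raising the rate and force of beating, while receptor kinases, arrestins and phosphodiesterases restrain the pathway. Isoproterenol activates these receptors without selectivity among the cardiac subtypes, and propranolol blocks them without selectivity. The molecules share an isopropylamino end on an ethanolamine chain, which in isoproterenol sits on a catechol ring and in propranolol is joined through an ether to a naphthalene ring. Newborn mouse heart muscle cells can still divide for a few days after birth and then largely leave the cell cycle.

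Of the 11961 genes, 1820 (15.2%) differed between the drugs at a Benjamini-Hochberg adjusted p below 0.05 in limma, a linear model with a variance shared across genes. Of these 805 (6.73% of genes tested) were higher with isoproterenol and 1015 (8.49%) were lower, with a median difference over all genes of -0.01 log2. These shares are the background for every list count between the drugs below. Differences of at least 0.5 log2 were called in 115 higher and 229 lower genes, and of at least 1 log2 in 8 higher and 17 lower genes, including 4 Y-linked genes. For 3982 genes (33.3%) all 3 libraries of one drug lay above all 3 of the other. Throughout, a log2 value is the isoproterenol mean minus the propranolol mean of log2(FPKM + 1), given ± SE, which understates changes of low genes. Positive values mean higher with isoproterenol. The filter lets in genes present with 1 drug only: 24 reached 1 FPKM in all 3 isoproterenol and no propranolol library, and 42 the reverse.

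Summed FPKM ran from 509984 to 532386 in the 6 libraries, read counts were not used here and the absolute depth is unknown. On the first principal component (51.1% of the variance of the 6) isoproterenol libraries stood at 8.36 to 15.8 and propranolol libraries at -14.0 to -9.18. The ventricular markers Myh6 (6317 and 6124 FPKM with isoproterenol and propranolol) and Tnnt2 (6070 and 5864 FPKM) stood high in both groups, and the lung marker Sftpc at no more than 0.07 FPKM. Some libraries stood apart. Isoproterenol 3 held the atrial myosin light chain Myl7 at 176 FPKM, against 0.28 to 2.59 FPKM in the other 5, and the lowest summed level of 20 macrophage markers (127 FPKM against 225 to 308). Propranolol 1 held the liver gene Alb at 10.8 FPKM against no more than 0.67 FPKM, and a sum of 10 liver markers of 48.2 FPKM against 14.3 to 20.3. The Y-linked gene Ddx3y stood at 0.01 to 0.05 FPKM in the isoproterenol and 7.17 to 8.82 FPKM in the propranolol libraries. In the fit over all 21 libraries, the 4 Y-linked genes called lower lost that call without any 1 of the 6 libraries. In the fit of the 6 libraries alone all 4 were called lower. Within these 6 libraries the sex that Y-linked transcripts report and the drug therefore cannot be told apart. Other groups held libraries of both kinds, so a term for presence or absence of Y-linked transcripts could be fitted over all 21 libraries. Presence was a mean log2(FPKM + 1) of the 4 Y-linked genes above 1. With this term 242 genes were higher and 416 lower. Without isoproterenol 3 and propranolol 1, 540 were higher and 495 lower. Below, these are called the Y-linked term and the 4-library fit. They are given for the named genes whose call they end. They are also given for list counts of 2 or more that they move by over 1.5 times. A call can end in either fit without a smaller log2 difference.

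**Figure D1:**
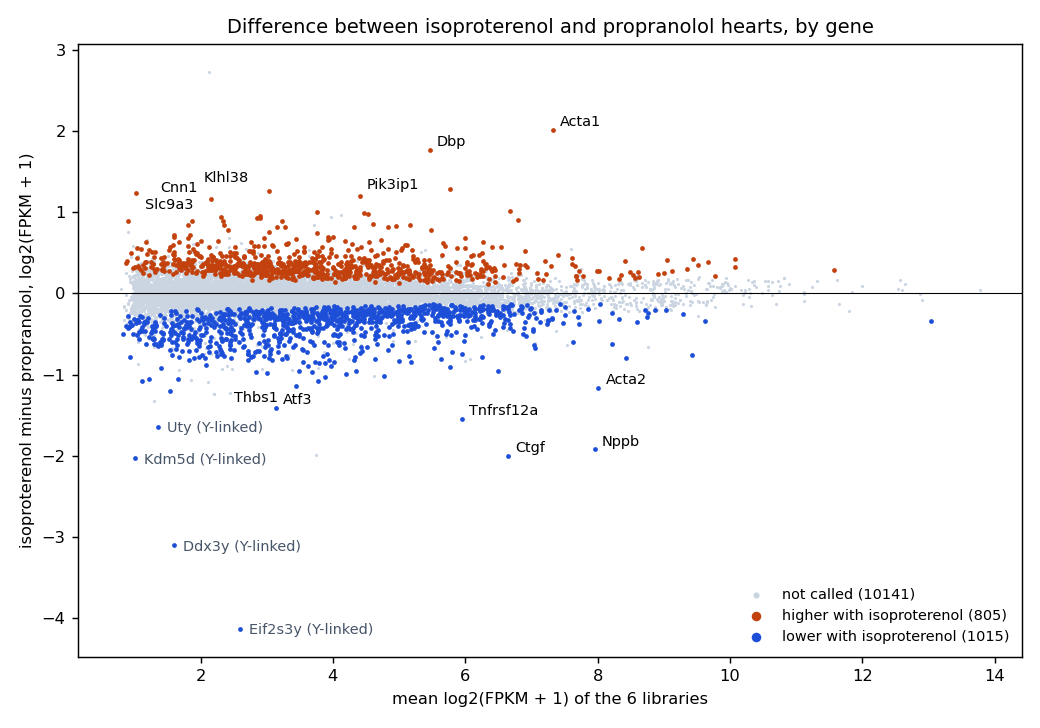
Difference between isoproterenol and propranolol hearts for 11961 genes (vertical axis, log2 of FPKM + 1) against mean level over the 6 libraries (horizontal axis, log2 of FPKM + 1). Each point is a gene; orange points are the 805 genes called higher with isoproterenol, blue the 1015 called lower, grey the others. Among called genes Acta1 and Dbp lead upwards, Ctgf and Nppb lead downwards beside the Y-linked genes named in grey letters, and the highest grey point is Myl7, which was high in isoproterenol 3 alone.

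Among the largest differences were genes known to respond to stretch or injury of the heart, and Ctgf, Nppb, Tnfrsf12a and Acta2 were lower with isoproterenol. Ctgf (Entrez 14219), a matricellular protein and a target of the growth regulator YAP, stood at 52.6, 42.5 and 52.0 FPKM in the isoproterenol libraries and at 159, 237 and 208 FPKM in the propranolol libraries. The propranolol mean was 4.11 times the isoproterenol mean (log2 -2.004 ± 0.227, adjusted p = 5.3e-05). The groups did not overlap, and propranolol 1 was the lowest of its group. Controls averaged 54.8 FPKM, near isoproterenol, and the remaining drug groups averaged 59.7 FPKM (ivabradine) to 108 FPKM (amiodarone), with metoprolol, also a β-blocker, at 104 ± 32.2 FPKM (SD, n = 3).

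Nppb, which encodes the natriuretic peptide BNP, a stretch-induced hormone of heart muscle, stood at 118, 128 and 135 FPKM with isoproterenol and 320, 611 and 578 FPKM with propranolol (log2 -1.92 ± 0.33, adjusted p = 0.00090). Again propranolol 1 was the lowest of its group, yet above every isoproterenol library. The control mean of 301 FPKM lay between the drugs: isoproterenol minus control was -1.24 log2 (adjusted p = 0.0083) and propranolol minus control 0.69 log2 (adjusted p = 0.13). Nppa, its atrial sister peptide, showed no such split, at 892 ± 159 FPKM with isoproterenol and 840 ± 204 FPKM with propranolol (log2 0.10, 95% interval -0.54 to 0.73, adjusted p = 0.87).

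Tnfrsf12a, the receptor of the cytokine TWEAK, stood at 26.4, 42.5 and 39.2 FPKM against 75.9, 123 and 122 FPKM (log2 -1.54 ± 0.22, adjusted p = 0.00029). Acta2, smooth muscle α-actin, stood at 174, 146 and 199 FPKM against 299, 439 and 436 FPKM (log2 -1.16 ± 0.13, adjusted p = 3.9e-05). In both genes the groups were apart. The control mean of Acta2 (284 FPKM) lay between the groups, while that of Tnfrsf12a (85.5 FPKM) lay within the range of the propranolol libraries. Acta1, the skeletal isoform that young heart also makes, went the other way and was higher with isoproterenol, at 218, 273 and 553 FPKM against 53.7, 103 and 87.2 FPKM (log2 2.02 ± 0.42, adjusted p = 0.0034). Isoproterenol 3, the library with atrial transcripts, was the highest. The Acta1 call was lost with the Y-linked term (log2 1.57, adjusted p = 0.082) and in the 4-library fit (log2 1.36, adjusted p = 0.079). Actc1, cardiac actin, was lower at 7523 against 9496 FPKM, with groups overlapping (log2 -0.336 ± 0.095, adjusted p = 0.022). It was called in 9 of 17 alternatives, and not with the Y-linked term (log2 -0.30, adjusted p = 0.16). Actin coding sequences are nearly identical, and how the authors' counting split reads among them is not given in the sources used here.

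Rcan1, an inhibitor and target of the phosphatase calcineurin, stood at 38.2 ± 2.07 against 58.7 ± 7.84 FPKM and was lower (log2 -0.60 ± 0.08, adjusted p = 0.00015). Dusp8, a MAP kinase phosphatase, stood at 12.3 ± 2.54 against 25.3 ± 5.00 FPKM (log2 -0.99 ± 0.17, adjusted p = 0.00070), and its control mean of 11.7 FPKM was near isoproterenol. In the remaining drug groups Dusp8 was near propranolol, averaging 21.1 FPKM (ivabradine) to 24.5 FPKM (metoprolol). Thbs1, a matricellular protein, stood at 6.44, 6.34 and 6.13 FPKM against 12.3, 20.5 and 13.6 FPKM (log2 -1.14 ± 0.30, adjusted p = 0.014). The Thbs1 call was lost without propranolol 2, its highest library (adjusted p = 0.084), and with the Y-linked term (log2 -1.23, adjusted p = 0.068). Ankrd1, a stretch-responsive nuclear and Z-disc protein, averaged 538 ± 117 against 898 ± 91.5 FPKM with groups apart (log2 -0.76 ± 0.24, adjusted p = 0.037). However, it was called in only 7 of 17 alternatives. The call was lost without isoproterenol 2 or 3 or any propranolol library (adjusted p = 0.052 to 0.14). It was also lost with the Y-linked term (log2 -1.0, adjusted p = 0.050) and in the 4-library fit (log2 -0.83, adjusted p = 0.099).

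Counted over lists, hypertrophic markers gave 2 higher and 5 lower of 17 tested, median -0.02 log2, with Acta1 and Fhl1 higher. The lower count was 3 without isoproterenol 2 or 3 or propranolol 2 or 3, and the higher count was 1 with the Y-linked term and 0 in the 4-library fit, which also ended the Fhl1 call (adjusted p = 0.071). Of 16 YAP targets, 3 were lower (Ctgf, Ankrd1 and Birc5, the last also a mitosis gene) and none higher, median -0.07 log2. The lower share was 18.8%, against 8.49% of all genes. Cyr61, a close relative of Ctgf and another YAP target, stood at 33.7 FPKM with isoproterenol and 34.1 FPKM with propranolol (log2 -0.02, 95% interval -0.25 to 0.22, adjusted p = 0.95).

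**Figure D2:**
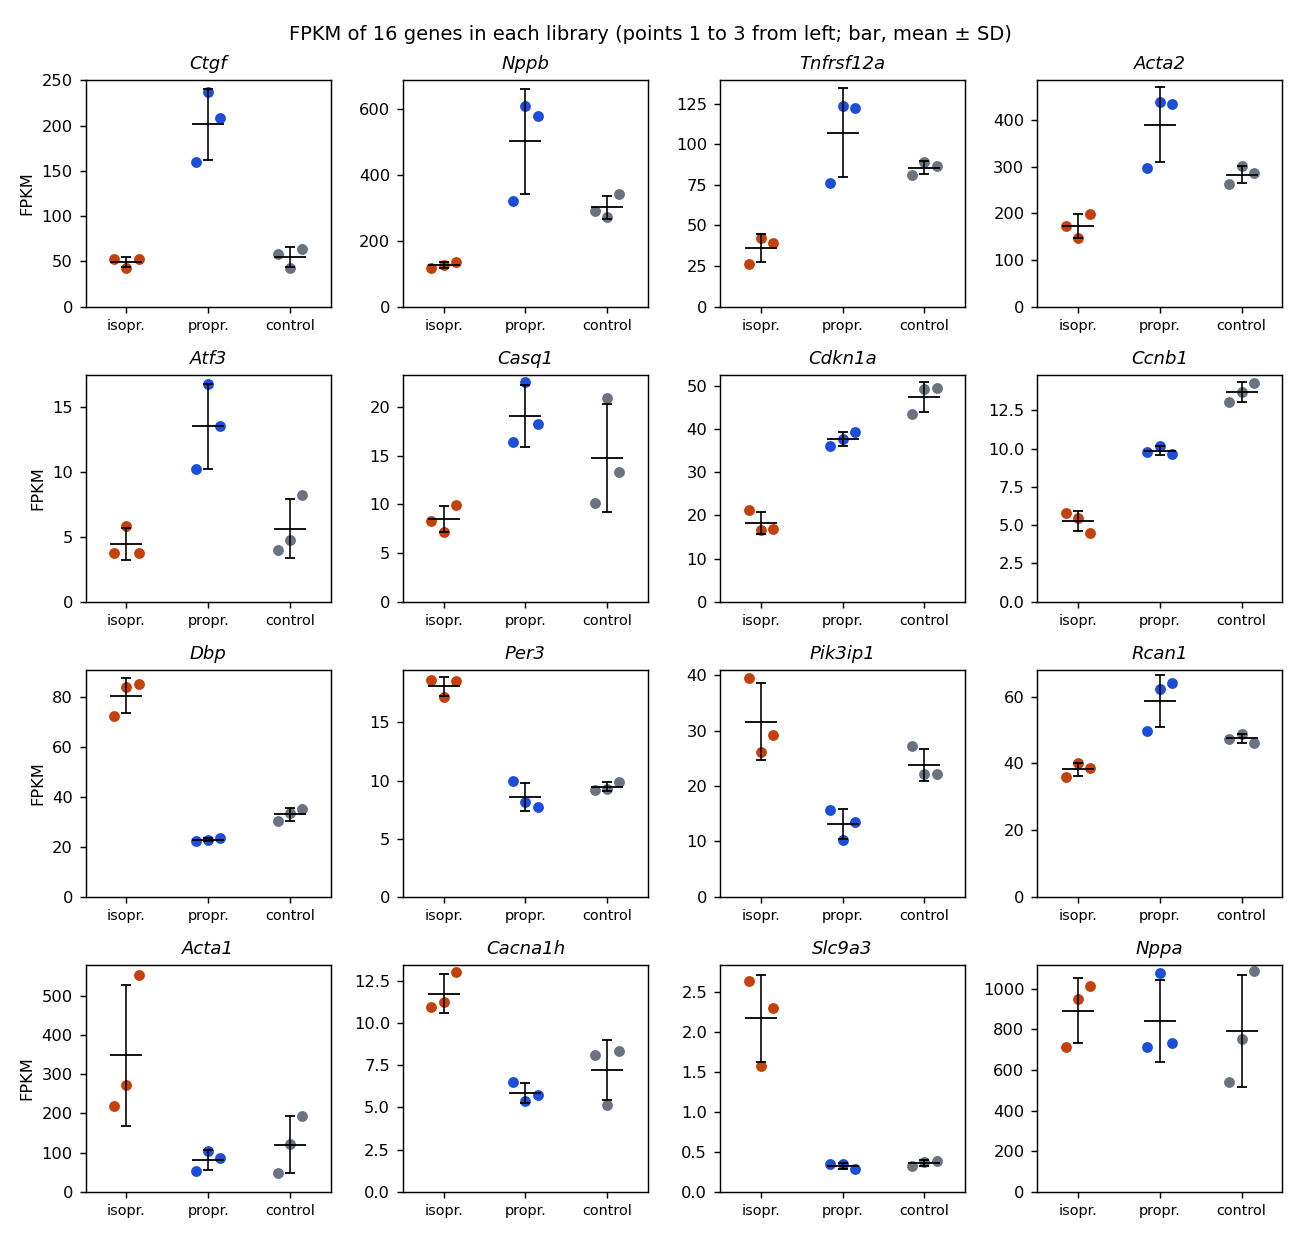
FPKM of 16 genes in the 3 isoproterenol, 3 propranolol and 3 control libraries (points, replicates 1 to 3 from left; line and bar, mean ± SD; each vertical axis in FPKM from 0). Among the groups shown, Ctgf and Atf3 stand near control with isoproterenol and high with propranolol. Cdkn1a and Ccnb1 are lowest with isoproterenol, Dbp and Per3 are highest with isoproterenol, and Nppa overlaps.

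The β1 receptor did not pass the test. Adrb1, the β1 receptor and the main β-adrenergic receptor of heart muscle, stood at 15.1, 17.2 and 14.6 FPKM with isoproterenol and 13.8, 12.3 and 12.7 FPKM with propranolol. The groups did not overlap, but the difference missed the threshold (log2 0.25 ± 0.09, adjusted p = 0.068). Adrb3 was at 0 to 0.09 FPKM in the 6 libraries, under the filter.

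Downstream, the Gs, cyclase and protein kinase A list gave 3 higher and 1 lower of 20 tested, against 15.2% of all genes called either way. The higher ones were the cyclases Adcy6 (64.7 ± 3.78 against 54.1 ± 5.96 FPKM, log2 0.26 ± 0.07, adjusted p = 0.019), Adcy9 and Adcy4, and the lower one was the G protein subunit Gnb1. None of the 4 calls held with the Y-linked term, and the 3 higher became 0 without isoproterenol 3 and 1 in the 4-library fit or without isoproterenol 1 or 2 or propranolol 2 or 3. Adcy5, the other main cardiac cyclase, stood at 34.5 ± 0.943 and 33.6 ± 2.98 FPKM with the drugs (log2 0.04, 95% interval -0.16 to 0.23, adjusted p = 0.83), while controls stood at 19.4 FPKM. It was thus 0.80 log2 above control with isoproterenol (adjusted p = 1.9e-05) and 0.77 log2 above with propranolol (adjusted p = 5.4e-05). The remaining drug groups were above control as well, at 26.9 FPKM (ivabradine) to 32.9 FPKM (amiodarone).

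Some genes that restrain the pathway were higher with isoproterenol. Adrbk2, a G protein-coupled receptor kinase that marks activated receptors for arrestin, stood at 8.14, 6.94 and 7.20 FPKM against 5.35, 4.10 and 3.94 FPKM (log2 0.63 ± 0.10, adjusted p = 0.00045). Grk5, a kinase of the same family, stood at 14.95, 12.4 and 12.3 FPKM against 8.89, 9.81 and 7.89 FPKM (log2 0.53 ± 0.09, adjusted p = 0.00068). For both kinases the groups were apart, with control means (5.73 and 11.1 FPKM) between them. Adrbk1, the most studied cardiac member, stood at 27.8 and 27.9 FPKM (log2 -0.01, 95% interval -0.11 to 0.10), and the arrestins Arrb1 (log2 0.15, adjusted p = 0.23) and Arrb2 (log2 -0.09, adjusted p = 0.61) were not called. Of 14 tested desensitisation genes 3 were higher and 1 lower; the others called were the G protein regulators Rgs3 (higher) and Rgs2 (lower, 13.3 ± 0.855 against 16.4 ± 1.19 FPKM), calls lost in 8 and 9 of 17 alternatives, both with the Y-linked term (adjusted p = 0.46 and 0.24) and Rgs2 also in the 4-library fit (adjusted p = 0.055).

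Pde4a, a phosphodiesterase that degrades cyclic AMP, stood at 16.4, 16.7 and 20.1 FPKM against 12.01, 12.4 and 12.1 FPKM (log2 0.50 ± 0.07, adjusted p = 0.00015). Of 15 phosphodiesterases 3 were higher and none lower, the others being Pde3a (log2 0.36 ± 0.10) and Pde7a (log2 0.25 ± 0.08). Only Pde4a was called with the Y-linked term, in the fit of the 6 libraries alone, or without isoproterenol 1 or 3 or propranolol 2 or 3, and the Pde7a call was also lost in the 4-library fit (adjusted p = 0.12). Pde4d, which is bound to the β-receptor complex, differed by -0.05 log2 (95% interval -0.23 to 0.13).

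Genes that cyclic AMP switches on through the factor CREB gave no call in that direction: of 13 tested, 0 were higher and 3 lower with isoproterenol, median -0.02 log2. The lower ones were Atf3, Per1 and Rgs2. Sik1 (log2 -0.29 ± 0.23), Nr4a1 (log2 -0.01 ± 0.43), Irs2 (log2 -0.64 ± 0.36) and Ppargc1a (log2 -0.02 ± 0.16) were not called. The count of 3 was 1 without isoproterenol 1 or propranolol 2 and 0 with the Y-linked term. RefSeq promoters (GRCm38.p6) were searched in a window from 250 bases before to 50 after the start, on either strand. The core TGACG, a part of the cAMP response element, was found in 7 of the 9 listed genes with an entry (77.8%). Its share was 35.7% among the 9539 tested genes with an entry. The full element TGACGTCA was found in 1 of the 9 (11.1%), against 3.44% of the 9539.

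Among immediate early genes, the transcription factors that respond first to stimuli, 1 was higher and 5 lower of 19 tested, median -0.14 log2. Atf3, a stress factor, stood at 3.78, 5.87 and 3.75 FPKM against 10.3, 16.8 and 13.5 FPKM (log2 -1.41 ± 0.31, adjusted p = 0.0048), with controls at 5.65 FPKM. Its groups were apart, but the call was lost with the Y-linked term (log2 -1.24, adjusted p = 0.072). Atf3 was also above control in the remaining drug groups, which averaged 15.7 FPKM (amiodarone) to 27.1 FPKM (lidocaine). Ier5, which promotes heat shock factor activity, stood at 14.5 ± 2.33 against 25.6 ± 2.83 FPKM (log2 -0.78 ± 0.12, adjusted p = 0.00034), and Maff (log2 -0.51 ± 0.10) and the AP-1 subunit Jund (log2 -0.53 ± 0.10) were lower too. The lower count was 3 with the Y-linked term. Fos (log2 -0.03 ± 0.38) and Egr1 (log2 0.35 ± 0.22) were not called.

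Genes of mitosis were lower with isoproterenol almost throughout the list. Of 39 tested, 37 were lower and 0 higher, median -0.69 log2, against 8.49% of all genes lower. In these 37 the 3 isoproterenol libraries lay below all 3 propranolol libraries, against 18.4% of all genes. The 2 others were the centromere histone Cenpa (log2 0.07) and the separase inhibitor Pttg1 (log2 0.07). Ccnb1, the cyclin that starts mitosis with Cdk1, stood at 5.82, 5.45 and 4.51 FPKM against 9.78, 10.2 and 9.63 FPKM (log2 -0.80 ± 0.12, adjusted p = 0.00034). Aurka, a kinase of the spindle poles, stood at 5.06, 3.93 and 3.44 FPKM against 8.28, 9.34 and 9.47 FPKM (log2 -0.97 ± 0.14, adjusted p = 0.00030). Isoproterenol 3 was the lowest library in both.

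Ect2, which sets up the contractile ring of dividing cells, stood at 1.04, 0.97 and 0.93 FPKM against 2.28, 1.95 and 1.90 FPKM (log2 -0.62 ± 0.09, adjusted p = 0.00030). Averaged over the 39 genes, isoproterenol libraries stood at 2.69, 2.76 and 2.31, propranolol libraries at 3.28, 3.26 and 3.20 and controls at 3.41 to 3.54 on the log2(FPKM + 1) scale. Both drug averages were thus under control, propranolol by less. Against control 37 of the 39 members were lower with isoproterenol, where 25.7% of all genes were (median -0.87 log2). With propranolol 8 of the 39 were lower, near the 19.8% of all genes (median -0.18 log2). The 37 calls between the drugs became 36 with the Y-linked term and 28 in the 4-library fit, and the filter at 5 FPKM, which leaves fewer members to test, gave 24. In bulk tissue fewer dividing cells and less of each transcript per cell cannot be told apart, and the same holds for every list below.

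Promoters of mitosis genes often carry a cell cycle genes homology region (CHR, letters TTTGAA) near another element, the CCAAT box, and through these the repressor complexes of the cell cycle and the factor NF-Y act. Promoters are shown because the genes moved together. In the RefSeq window TTTGAA or its complement was found in 23 of 32 mitosis genes with an entry (71.9%), against 14% of the 9539 tested genes with one, and CCAAT in 25 of 32 (78.1%) against 43.1%, though CCAAT was as frequent in the clock genes described below, 13 of 16 (81.2%). Below are the 120 bases before the start of Prc1 (a microtubule bundler, chr7:80294356-80294475, plus strand), Ube2c (a ubiquitin-conjugating enzyme of mitotic exit, chr2:164769809-164769928, plus strand), Kif11 (a spindle motor, chr19:37376262-37376381, plus strand) and Cdk1 (chr10:69352913-69353032, minus strand), 5′ to 3′ along the gene, from GRCm38.p6. Capitals mark the CHR and the CCAAT box on either strand, motifs that share no base.
Prc1: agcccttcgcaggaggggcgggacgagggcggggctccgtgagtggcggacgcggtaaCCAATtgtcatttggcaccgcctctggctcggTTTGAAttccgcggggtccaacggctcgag
Ube2c: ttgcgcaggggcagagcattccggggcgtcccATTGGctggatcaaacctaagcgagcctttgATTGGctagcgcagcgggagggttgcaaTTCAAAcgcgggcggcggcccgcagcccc
Kif11: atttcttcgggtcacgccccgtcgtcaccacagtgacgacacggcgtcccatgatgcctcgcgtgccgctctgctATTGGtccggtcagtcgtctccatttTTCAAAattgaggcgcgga
Cdk1: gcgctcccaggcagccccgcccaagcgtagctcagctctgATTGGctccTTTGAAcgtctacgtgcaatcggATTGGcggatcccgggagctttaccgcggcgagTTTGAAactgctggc

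In these windows the nearest TTTGAA or complement began 15 (Cdk1) to 30 (Prc1) bases before the start. Prc1 stood at 8.31, 9.45 and 5.91 FPKM with isoproterenol against 15.8, 15.2 and 13.4 FPKM with propranolol (log2 -0.85 ± 0.13, adjusted p = 0.00045). Ube2c (log2 -0.83 ± 0.13), Kif11 (log2 -0.78 ± 0.13) and Cdk1 (log2 -0.77 ± 0.12) differed by similar amounts, each with the groups apart.

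DNA replication genes were lower too, with a smaller median difference. Of 40 tested, 28 were lower and 0 higher, median -0.40 log2, against 8.49% of all genes lower, and in 37 the isoproterenol libraries lay below all propranolol libraries, against 18.4% of all genes. Gins2, part of the replicative helicase, stood at 7.21, 7.25 and 8.52 FPKM against 10.8, 12.9 and 13.7 FPKM (log2 -0.63 ± 0.09, adjusted p = 0.00025). Pcna, the sliding clamp, stood at 50.5 ± 5.44 against 76.2 ± 6.24 FPKM (log2 -0.59 ± 0.08, adjusted p = 0.00025), and Rrm1, a ribonucleotide reductase subunit, at 12.9 ± 0.979 against 20.1 ± 0.185 FPKM (log2 -0.60 ± 0.09, adjusted p = 0.00034). The lower count was 12 with the Y-linked term and 16 without isoproterenol 3, while the medians were -0.395 and -0.325 log2.

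Cdkn1a (p21), which halts the cell cycle by binding cyclin-dependent kinases, was lower as well. It stood at 21.2, 16.6 and 17.0 FPKM with isoproterenol and 36.1, 37.8 and 39.5 FPKM with propranolol (log2 -1.02 ± 0.10, adjusted p = 1.5e-05). The groups were far apart, both under the control mean of 47.5 FPKM, as were the remaining drug groups, at 38.5 FPKM (ivabradine) to 43 FPKM (metoprolol). In the G1 list 6 of 19 were lower, among them the cyclin Ccnd1 (log2 -0.34 ± 0.06) and the inhibitor Cdkn2c (log2 -0.48 ± 0.09), and 1, the inhibitor Cdkn1b, was higher (log2 0.27 ± 0.07, adjusted p = 0.012). The Cdkn1b call was lost with the Y-linked term (adjusted p = 0.29) and without isoproterenol 1 or propranolol 3, and the higher count was 2 without isoproterenol 2 or propranolol 1. The p53 targets were split, with 3 higher and 4 lower of 19, median -0.08 log2. Besides Cdkn1a the nuclease Aen was lower (log2 -0.39 ± 0.06), while the stress protein Trp53inp1 was higher (log2 0.49 ± 0.09, adjusted p = 0.0013). The p53 targets called lower were 2 without isoproterenol 3.

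Clock genes differed in both directions. Of 19 tested 9 were higher and 2 lower with isoproterenol, median 0.33 log2. Dbp, a factor of the output arm, stood at 72.5, 83.9 and 85.3 FPKM against 22.5, 22.6 and 23.5 FPKM. This was a 3.52-fold difference (log2 1.77 ± 0.15, adjusted p = 7.1e-06), with the control mean of 33.0 FPKM between the groups and the remaining drug groups at 25.4 to 42.9 FPKM. Its relative Tef stood at 45.2, 47.2 and 49.7 FPKM against 28.8, 25.2 and 23.9 FPKM (log2 0.85 ± 0.09, adjusted p = 4.4e-05).

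Of the repressors of the loop, Per3 stood at 18.7, 17.2 and 18.5 FPKM against 9.99, 8.15 and 7.70 FPKM (log2 1.00 ± 0.11, adjusted p = 5.9e-05), and Per2 (log2 0.78 ± 0.13) and Nr1d1 (log2 0.99 ± 0.15, adjusted p = 0.00034) were higher too. Arntl, the activator that Nr1d1 represses, went the other way, at 2.19, 1.00 and 0.66 FPKM against 3.75, 3.16 and 3.86 FPKM (log2 -1.06 ± 0.21, adjusted p = 0.0027). Per1 was also lower, at 13.2, 15.4 and 18.1 FPKM against 21.8, 32.7 and 26.0 FPKM (log2 -0.74 ± 0.19, adjusted p = 0.014), unlike Per2 and Per3. Both drugs were above its control mean of 9.74 FPKM, as were the remaining drug groups, at 23.5 FPKM (amiodarone) to 49.6 FPKM (lidocaine). The Per1 call was lost without isoproterenol 1 (adjusted p = 0.064) or propranolol 2 (adjusted p = 0.086) and with the Y-linked term (adjusted p = 0.19). Clock, the partner of Arntl, was not called (log2 -0.23 ± 0.08, adjusted p = 0.054). The clock genes called lower were 1 without propranolol 2 or with the Y-linked term. No hour of collection is labelled.

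Clock factors act through the E-box CACGTG, bound by Arntl and Clock, and the D-box TTATGNAA, bound by Dbp and Tef. In the RefSeq window the E-box was found in 5 of 16 clock genes with an entry (31.2%), against 11.8% of the 9539 tested genes with one, and the D-box in 2 of 16 (12.5%) against 2.39%. The 250 bases before the start are shown for Per3 (chr4:151044666-151044915, minus strand), with both its D-boxes in capitals, and Tef (chr15:81802423-81802672, plus strand), with its E-box in capitals, 5′ to 3′ along the gene, from GRCm38.p6, as genes with one of the motifs and large differences.
Per3: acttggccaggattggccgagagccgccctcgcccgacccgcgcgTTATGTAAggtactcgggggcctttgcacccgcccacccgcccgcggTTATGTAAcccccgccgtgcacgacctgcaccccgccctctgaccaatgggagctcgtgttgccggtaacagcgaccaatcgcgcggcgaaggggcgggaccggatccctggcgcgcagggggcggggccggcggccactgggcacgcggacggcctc
Tef: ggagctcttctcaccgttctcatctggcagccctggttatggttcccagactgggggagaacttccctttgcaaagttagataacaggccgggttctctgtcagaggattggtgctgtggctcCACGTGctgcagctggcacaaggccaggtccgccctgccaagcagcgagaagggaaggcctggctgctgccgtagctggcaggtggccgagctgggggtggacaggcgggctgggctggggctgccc

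**Figure D3:**
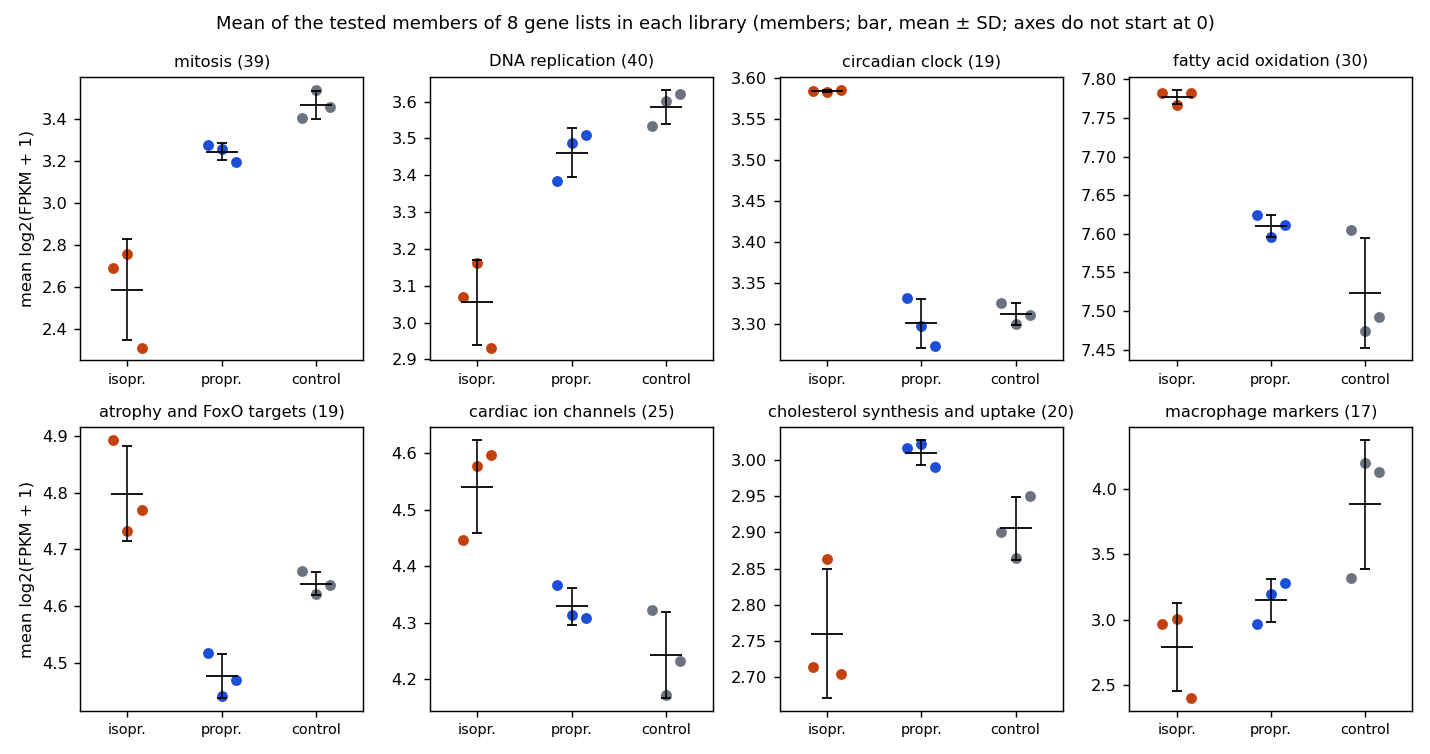
Mean log2(FPKM + 1) of the tested members of 8 gene lists in each isoproterenol, propranolol and control library (points, replicates 1 to 3 from left; line and bar, mean ± SD; the vertical axes do not start at 0). Mitosis and DNA replication are lowest with isoproterenol, clock and fatty acid oxidation are highest with it, and the macrophage list is lowest in isoproterenol 3.

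Fatty acid oxidation is the main fuel pathway of mature heart. Of its 30 tested 12 were higher with isoproterenol and 0 lower, median 0.17 log2, against 6.73% of all genes higher. Hadhb, a subunit of the mitochondrial trifunctional protein, stood at 723 ± 15.6 against 585 ± 13.1 FPKM (log2 0.30 ± 0.05, adjusted p = 0.00081), and Decr1, needed for unsaturated fatty acids, at 134 ± 8.46 against 105 ± 5.38 FPKM (log2 0.35 ± 0.05, adjusted p = 0.00045). Groups were apart in both. The count was 7 without propranolol 2 and in the 4-library fit. Cpt1b, the gate of fatty acid entry into mitochondria, was not called (log2 0.03 ± 0.05), nor was Pdk4 (142 against 197 FPKM, log2 -0.47 ± 0.18, adjusted p = 0.082).

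Of 41 oxidative phosphorylation genes 2 were higher and none lower, median 0.10 log2, against 6.73% and 8.49% of all genes. Rescaling the libraries left 0, as did the 4-library fit and leaving out isoproterenol 2 or 3 or propranolol 1 or 2, while 1 was higher without propranolol 3 and 4 without isoproterenol 1 or with the Y-linked term. Glycolysis gave 4 higher and 2 lower of 24, with Eno3, the muscle enolase, higher (log2 0.42 ± 0.08, adjusted p = 0.0011) and Pfkp, a non-muscle phosphofructokinase, lower (log2 -0.20 ± 0.06, adjusted p = 0.021). The Pfkp call was lost without isoproterenol 1 or propranolol 2 or 3 (adjusted p = 0.061 to 0.096), with the Y-linked term (adjusted p = 0.10) and in the 4-library fit (adjusted p = 0.057). The lower count was 0 with the Y-linked term or without isoproterenol 1 or propranolol 3 and 1 without propranolol 1 or 2 or in the 4-library fit, and the higher count was 2 without isoproterenol 2 or 3 or propranolol 1 or 2 or with the Y-linked term, and 1 in the 4-library fit. In the glycogen list 3 were higher and 1 lower of 18. Stbd1, which tethers glycogen to membranes, was the lower one, at 7.65, 7.70 and 9.16 FPKM against 17.3, 17.5 and 16.1 FPKM (log2 -0.97 ± 0.12, adjusted p = 6.7e-05), and its control mean of 8.37 FPKM was near isoproterenol. In the remaining drug groups Stbd1 averaged 14.1 FPKM (amiodarone) to 21.9 FPKM (ivabradine). Ppp1r3c, which activates glycogen synthase, was higher (log2 0.46 ± 0.10, adjusted p = 0.0052, lost in the 4-library fit at adjusted p = 0.097). The higher count was 1 without isoproterenol 2 or 3 or propranolol 2, and the lower count 2 without isoproterenol 1.

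Cholesterol synthesis and uptake genes were lower with isoproterenol: 8 of 20, with 1 higher, median -0.21 log2. Sqle, squalene epoxidase, was lower (log2 -0.61 ± 0.13, adjusted p = 0.0049, lost with the Y-linked term at adjusted p = 0.053), while Fdft1, squalene synthase, was higher (log2 0.34 ± 0.08, adjusted p = 0.0086, lost with the Y-linked term at adjusted p = 0.067). The lower count was 2 with the Y-linked term, 3 in the 4-library fit, 4 without isoproterenol 1, and 5 without isoproterenol 3 or propranolol 2.

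Atrophy and FoxO target genes, which include ubiquitin ligases and autophagy factors switched on when insulin-like signalling is low, were higher with isoproterenol in 12 of 19 and lower in 0, median 0.30 log2. Pik3ip1, an inhibitor of phosphatidylinositol 3-kinase, stood at 39.5, 26.2 and 29.2 FPKM against 15.7, 10.3 and 13.4 FPKM (log2 1.21 ± 0.18, adjusted p = 0.00038). Foxo4 itself stood at 24.0 ± 2.34 against 16.1 ± 1.15 FPKM (log2 0.54 ± 0.09, adjusted p = 0.00051). Cited2, a transcriptional coregulator, stood at 23.3 ± 2.88 against 14.8 ± 0.392 FPKM (log2 0.61 ± 0.09, adjusted p = 0.00039). In each the groups were apart. Of the muscle ubiquitin ligases, Fbxo32, atrogin-1, was higher (16.6 ± 2.19 against 9.48 ± 1.35 FPKM, log2 0.75 ± 0.12, adjusted p = 0.00053), and Trim63, MuRF1, was not called (128 against 127 FPKM, log2 0.02 ± 0.07). Fbxo32 and Trim63 were named after their values were seen. Against control the list gave 7 higher and 1 lower with isoproterenol (8.73% and 25.7% of all genes), and 1 higher and 6 lower with propranolol (7.23% and 19.8%). The count of 12 was 7 with the Y-linked term.

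Among cardiac ion channels and gap junction genes 10 were higher and 1 lower of 25, median 0.18 log2. Cacna1h, a T-type calcium channel of fetal and pacemaking heart cells, stood at 10.97, 11.2 and 13.1 FPKM against 6.53, 5.36 and 5.76 FPKM (log2 0.89 ± 0.14, adjusted p = 0.00045). Kcnj5, a subunit of the G protein-gated potassium channel that vagal signals open, stood at 32.2 ± 1.52 against 20.1 ± 2.62 FPKM (log2 0.66 ± 0.11, adjusted p = 0.00090). Gja1, the main ventricular connexin, stood at 227 ± 13.4 against 168 ± 11.1 FPKM (log2 0.43 ± 0.07, adjusted p = 0.00064). The groups were apart in all 3 genes, and the control means (7.22, 18.5 and 176 FPKM) were nearer to propranolol. The count was 3 with the Y-linked term, 5 without isoproterenol 2 or propranolol 2 and 6 without isoproterenol 3.

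Calcium handling genes had 0 higher and 4 lower of 23 (17.4%), median -0.10 log2, against 8.49% of all genes lower. Casq1, the skeletal calsequestrin, stood at 8.32, 7.19 and 9.89 FPKM against 16.4, 22.5 and 18.3 FPKM (log2 -1.08 ± 0.20, adjusted p = 0.0015). Jph2, which holds the calcium release unit together, stood at 132 ± 10.1 against 171 ± 4.27 FPKM (log2 -0.37 ± 0.06, adjusted p = 0.00054). Both were above its control mean of 107 FPKM, as were the remaining drug groups, at 147 FPKM (metoprolol) to 173 FPKM (lidocaine). Camk2d, the main cardiac calmodulin kinase, was lower (log2 -0.25 ± 0.05, adjusted p = 0.0046), a call lost with the Y-linked term (adjusted p = 0.057), which left 2 of the 4. Atp2a2, the calcium pump SERCA2, was not called between the drugs: it stood at 2224 ± 279 and 2223 ± 53.3 FPKM (log2 -0.01, 95% interval -0.20 to 0.19), each 0.69 log2 above control (adjusted p = 5.6e-05 and 0.00011). Its control mean was 1374 FPKM, and the remaining drug groups also stood above it, at 2245 FPKM (amiodarone) to 2422 FPKM (lidocaine).

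In the sarcomere list 3 were higher and 1 lower of 28, median 0.04 log2, near the 15.2% of all genes called, and the higher count was 1 without propranolol 2 or with the Y-linked term and 0 in the 4-library fit. The adult and fetal myosin heavy chains were not called. Myh6 stood at 6317 ± 343 and 6124 ± 386 FPKM (log2 0.05, 95% interval -0.11 to 0.20), and Myh7 at 48.9 ± 32.9 and 66.0 ± 28.8 FPKM (log2 -0.54, 95% interval -1.70 to 0.61). Myh7 varied widely within both groups, so a difference of the size seen in Ctgf is outside its interval but a smaller one is not.

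**Figure D4:**
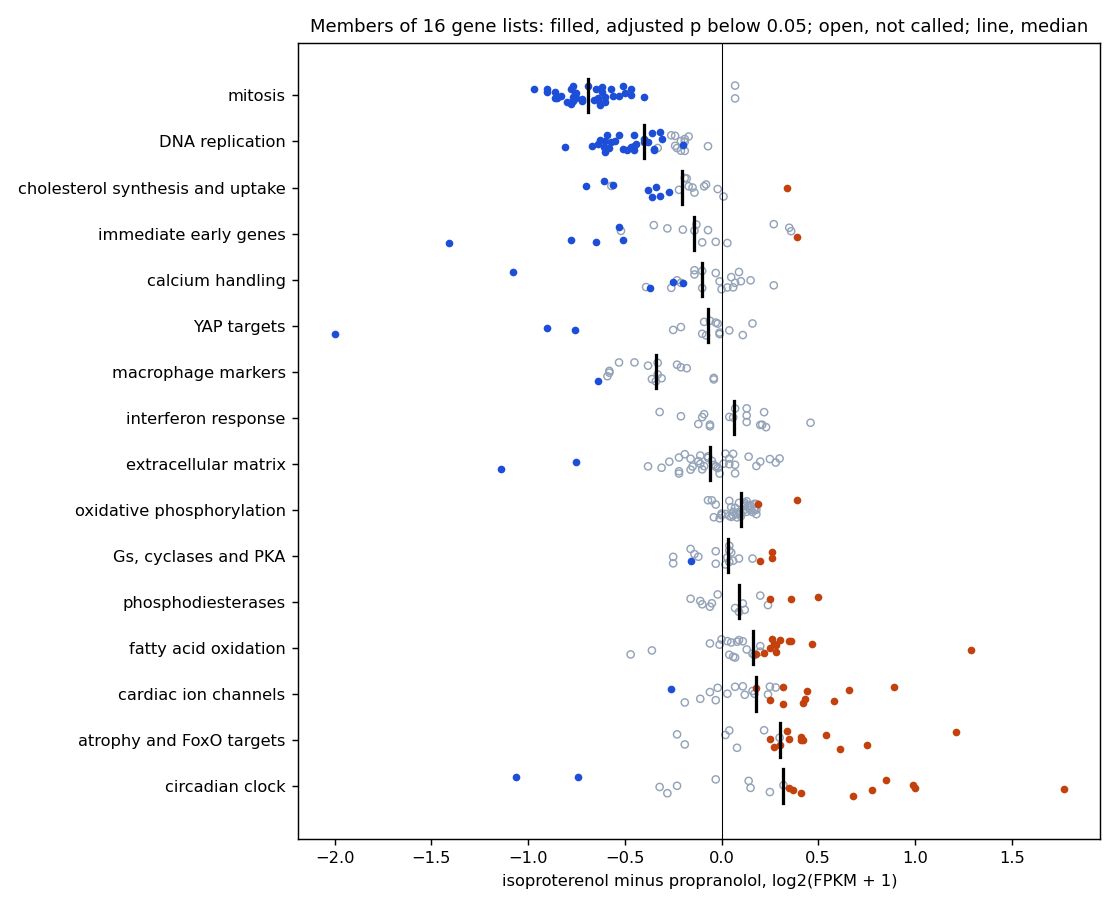
Difference between isoproterenol and propranolol (horizontal axis, log2 of FPKM + 1) for each tested member of 16 gene lists (rows). Filled points passed the adjusted p threshold (orange higher, blue lower with isoproterenol), open points did not, and the black line is the list's median, which is -0.69 for mitosis and 0.33 for the clock.

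The other genes of largest difference belong to no common list. Slc9a3, a sodium-proton exchanger best known from gut and kidney, stood at 2.65, 1.58 and 2.30 FPKM with isoproterenol and 0.35, 0.35 and 0.28 FPKM with propranolol (log2 1.25 ± 0.11, adjusted p = 8e-06). It passed the filter through isoproterenol alone, and controls stood at 0.363 FPKM. Klhl38, a muscle kelch protein, stood at 11.9 ± 2.79 against 4.31 ± 0.426 FPKM (log2 1.26 ± 0.15, adjusted p = 7.3e-05), and Asb15, a muscle ubiquitin ligase adaptor, at 9.36 ± 0.833 against 4.36 ± 0.588 FPKM (log2 0.95 ± 0.15, adjusted p = 0.00040). Msrb1, a methionine sulfoxide reductase, stood at 111, 156 and 172 FPKM against 66.4, 68.2 and 77.8 FPKM (log2 1.02 ± 0.13, adjusted p = 0.00012).

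Rpl3l, the striated muscle form of ribosomal protein L3, stood at 24.8, 35.95 and 35.1 FPKM against 13.7, 16.2 and 16.5 FPKM (log2 0.99 ± 0.16, adjusted p = 0.00066). Its ubiquitous counterpart Rpl3 went the other way, at 401 ± 13.9 against 472 ± 13.6 FPKM (log2 -0.24 ± 0.06, adjusted p = 0.0082). That call was lost with the Y-linked term (log2 -0.23, adjusted p = 0.078) and in the 4-library fit (log2 -0.22, adjusted p = 0.066). The sign was not particular to Rpl3, as 62 of 64 cytosolic ribosomal protein genes had negative values. Cnn1, smooth muscle calponin, was higher at 3.59, 5.26 and 9.38 FPKM against 1.77, 2.38 and 1.83 FPKM (log2 1.16 ± 0.23, adjusted p = 0.0026), opposite to Acta2. Fam212b (log2 -1.03 ± 0.20) and the fatty acid binding protein Fabp7 (0.633 ± 0.242 against 2.38 ± 0.275 FPKM, log2 -1.05 ± 0.17) were lower. Fabp7 passed the filter through propranolol alone.

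Markers of other cell types gave few calls among macrophage, endothelial and fibroblast lists. All 17 tested macrophage markers had negative values, median -0.34 log2, but 1 was called, the chemokine receptor Cx3cr1, at 3.85, 3.44 and 2.79 FPKM against 5.77, 5.76 and 5.74 FPKM (log2 -0.64 ± 0.10, adjusted p = 0.00046). Without isoproterenol 2 or propranolol 1 the count was 2. Summed, 20 macrophage markers stood at 127 to 256 FPKM with isoproterenol and 227 to 308 FPKM with propranolol, which overlap, with isoproterenol 3 lowest, and the part of this difference in other results was not tested. Endothelial markers gave 2 higher of 19, the SoxF factors Sox17 (log2 0.34 ± 0.07, lost in the 4-library fit at adjusted p = 0.058) and Sox18 (log2 0.37 ± 0.09, lost without isoproterenol 1 at adjusted p = 0.070 and with the Y-linked term at 0.12), so that each of these settings left 1. Fibroblast markers gave 2 higher of 13, 1 without isoproterenol 1 or 2, and 0 without isoproterenol 3 or any propranolol library, in the 4-library fit or with the Y-linked term. Smooth muscle and pericyte markers gave 2 higher and 1 lower (Acta2) of 12, the higher count being 1 without any isoproterenol library or propranolol 2 or 3, in the 4-library fit and with the Y-linked term. Atrial markers gave 1 higher of 6, which became 4 without isoproterenol 2, 2 without isoproterenol 1 or propranolol 1, and 0 with the Y-linked term. Of 12 ventricular markers 1 was lower (Actc1) and 0 higher. Summed endothelial markers stood at 1950 to 2164 FPKM against 1946 to 1995 FPKM, and summed ventricular markers at 54892 to 58659 FPKM against 54581 to 60159 FPKM.

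No interferon response gene (of 18) and no gene of MHC class I and antigen processing (of 15) was called between the drugs, with medians of 0.06 and -0.16 log2, although 16 and 13 of them were lower than control with isoproterenol (25.7% of all genes were lower, 34.5% called either way) and 14 and 10 with propranolol (19.8% lower, 27.0% either way). The spread was wide: H2-K1, an MHC class I heavy chain, differed by -0.84 ± 0.68 log2 and B2m, its light chain, by -0.61 ± 0.50 log2, and propranolol 2 held the highest B2m of the 6 libraries, 291 FPKM. Among chemokine genes Cxcr4, the receptor of Cxcl12, was higher with isoproterenol at 9.38, 8.23 and 9.10 FPKM against 4.53, 4.76 and 6.36 FPKM (log2 0.68 ± 0.14, adjusted p = 0.0027). Both groups were below its control mean of 15.9 FPKM, as were the remaining drug groups, at 3.95 FPKM (lidocaine) to 6.41 FPKM (metoprolol). Extracellular matrix genes gave 0 higher and 2 lower of 38 (5.26%), against 8.49% of all genes lower. The 2 were Thbs1 and the protease Adamts1 (log2 -0.75 ± 0.19, adjusted p = 0.014). Both calls were lost without propranolol 2 (adjusted p = 0.084 and 0.087) and with the Y-linked term (adjusted p = 0.068 and 0.14). The collagens Col1a1 (451 against 434 FPKM, log2 0.06 ± 0.25) and Col3a1 (642 against 656 FPKM, log2 -0.03 ± 0.16) were not called.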

How the data were processed

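RNA of heart apex was sequenced on a BGISEQ-500, per the labels' protocols. The authors deposited 1 table of FPKM values with 2 decimals. HISAT, Bowtie2 2.2.5 and build mm9 are named in the submitters' processing notes; the counter, annotation and filters are not given in the sources used here. Each value column was mapped to a library by its title, leaving 0 columns unmapped. Without counts or read totals no counting interval was given.

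The log2(FPKM + 1) values of genes reaching 1 FPKM in 3 or more of the 6 libraries were fitted with limma 3.58.1 in R 4.3.3, with 1 mean per group over all 7 groups and 21 libraries (14 residual degrees of freedom), a mean-variance trend and Benjamini-Hochberg adjustment over 11961 genes. The control enters as a side-by-side level only; both drug-minus-control contrasts share its libraries. In simulated data differences were given to 50 genes per size, drawn from genes with a mean log2(FPKM + 1) above 2. Recovered were 36%, 90%, 98% and 100% at 0.25, 0.5, 1 and 2 log2, with 9 false calls among 11761 unchanged genes. The noise was drawn independently for each gene and library, without shared library effects. These shares are therefore not error rates of the reported calls.

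The 50 gene lists were written from general knowledge, and the members and lists were chosen with earlier results of these data known. Named by rule were the 12 largest called differences each way with groups apart, the 3 members of smallest p of each list (the member of largest p where none was called), and a fixed set of receptors, effectors, growth genes and markers. The text gives a part of these, and other members of the lists it names were chosen after their values were seen. Alternatives, 17 in all, were rescaling by the median of ratios, a fit of the 6 libraries alone, filters of 5 FPKM or none, a pseudocount of 0.1, a fit without the trend, robust moderation, a block for the library number, leaving out libraries, and a term for 4 Y-linked genes. That term with rescaling was added after the data were seen. Promoters came from RefSeq (GRCm38.p6, 9539 of 11961 tested genes matched by gene identifier), a build other than that of the table. Some members of the lists are not reported here.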

Additional observations from a re-analysis of the deposited data

Results flagged for a closer look

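The 4 genes below were under the filter, and each stood in 1 library above every other of the 6 and above all controls. In propranolol 1, Alb, serum albumin made in liver, stood at 10.79 FPKM, against 0.03 to 0.67 FPKM in the other 5 libraries and 0.06 to 0.17 FPKM in controls. Apoa1, a lipoprotein made in liver, stood at 6.68 FPKM in the same library, against 0 to 0.46 FPKM. In isoproterenol 3, Sln, sarcolipin, a regulator of the calcium pump in atrium, stood at 21.01 FPKM, against 0 to 1.08 FPKM in the other 5 and up to 2.94 FPKM in controls. Mybphl, a myosin binding protein of atrium, stood at 6.62 FPKM in isoproterenol 3, against 0 to 0.26 FPKM. Their part in other results was not tested beyond the fit without these 2 libraries.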

How the results depend on the processing

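Of 106 named genes that were called, 56 were called under every one of the 17 alternatives, 40 lost the call with the Y-linked term and 31 without isoproterenol 3 and propranolol 1. With the Y-linked term 242 genes were higher and 416 lower, and 636 of the 1820 calls were kept in the same direction (34.9%). With that term and rescaling, an alternative chosen after seeing the data, 287 were higher and 328 lower. The cause was not tested. The term turned the sign of 3 of the genes it was built from, giving a Kdm5d log2 difference of 0.056, an Eif2s3y log2 difference of 0.18 and a Ddx3y log2 difference of 0.174, and with rescaling 0.036, 0.17 and 0.152. Without isoproterenol 3 and propranolol 1, with fewer samples, 540 genes were higher and 495 lower, and 52.2% of calls were higher against 44.2%. Leaving out 1 library gave 417 to 730 higher and 565 to 879 lower, the lowest counts both without propranolol 2; the other counts more than 1.5 times under the reported ones were those higher without isoproterenol 1 (516) or propranolol 3 (502) and lower without isoproterenol 3 (595). Rescaling gave 909 higher and 906 lower (50.1% higher). Deviations of libraries with the same number correlated at 0.312, 0.1 and 0.0207, and those with different numbers at -0.272 to 0.216. These values do not settle if the numbers mark pairs, and they were not taken as pairs. A replicate block gave 769 higher and 946 lower. FPKM values carry no read totals, so no limit of depth could be given for low genes.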

Other observations

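Stress lists not described above gave calls in both directions, except the thyroid hormone axis and the hypoxia targets. Of 9 thyroid hormone axis genes 0 were called. Of 15 hypoxia targets 3 were higher and 0 lower (Bnip3, Egln1 and Ndrg1, median 0.14 log2), and 0 were called with the Y-linked term. Of 18 genes of the unfolded protein and integrated stress responses 2 were higher and 3 lower with isoproterenol, the lower count being 1 with the Y-linked term and the higher count 1 without isoproterenol 2. Herpud1, which helps clear misfolded proteins from the endoplasmic reticulum, stood at 71.6, 68.6 and 69.9 FPKM against 45.5, 48.3 and 48.3 FPKM with propranolol (log2 0.55 ± 0.08, adjusted p = 0.00024), while Atf4, the factor of the integrated stress response, stood at 54.8, 65.7 and 59.7 FPKM against 77.3, 81.5 and 80.7 FPKM (log2 -0.41 ± 0.07, adjusted p = 0.00053). The groups were apart in both. Among 15 heat shock genes the inducible chaperone Hsp90aa1 was lower (39.0 ± 3.70 against 56.5 ± 5.00 FPKM, log2 -0.52 ± 0.09, adjusted p = 0.0013), and without propranolol 1 the lower count was 3 in place of 1.

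Of 14 oxidative stress genes 4 were higher and 1 lower. Gstm1, a glutathione transferase, stood at 41.0, 42.9 and 40.9 FPKM against 31.3, 29.9 and 31.4 FPKM (log2 0.42 ± 0.07, adjusted p = 0.00094), and Txnrd1, thioredoxin reductase, was lower (log2 -0.25 ± 0.06, adjusted p = 0.0046). With the Y-linked term 1 of the 4 was called higher, and in the fit without isoproterenol 3 and propranolol 1, 2 were. Of 64 cytosolic ribosomal protein genes 5 were lower (7.81%) and 0 higher, near the 8.49% of all genes lower. However, 62 of the 64 had negative values, median -0.12 log2. In 29 of the 64 the isoproterenol libraries lay below all propranolol libraries, against 18.4% of all genes. Rescaling the libraries, which moved the median of all genes from -0.01 to 0.002 log2, gave 1 lower, as did leaving out isoproterenol 1 or 3, propranolol 2 or 3, or both isoproterenol 3 and propranolol 1, while 2 were lower without isoproterenol 2, and 0 were with the Y-linked term. Of 25 growth factor and receptor genes of heart regeneration 2 were higher (8%), near the 6.73% of all genes higher. These were Bmp4 (7.90 ± 0.806 against 5.02 ± 1.19 FPKM, log2 0.58 ± 0.14, adjusted p = 0.0085) and Agrn (log2 0.27 ± 0.09, adjusted p = 0.046). Neither was called with the Y-linked term (adjusted p = 0.10 and 0.36). Bmp4 was not called in the fit without isoproterenol 3 and propranolol 1 either (adjusted p = 0.10), and the count was 1 without isoproterenol 1 or 3 or propranolol 2 or 3.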
